A study of Mus musculus with 2 samples.

Results

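The proteasome subunits described here are the 40 mouse genes, of 27998 in the gene table, whose symbols are Psma, Psmb, Psmc, Psmd or Psme followed by a number, leaving out the immunoproteasome genes Psmb8, Psmb9 and Psmb10. They were chosen by symbol and not by any measured value. Single-cell RNA sequencing had been done on viable CD45+ cells (white blood cells) from tumours of C57BL/6J mice. The tumours were grown from MC38, a colon carcinoma line of the mouse, which was placed in the skin at 4 sites per mouse and grew for 7 days before treatment. In the Control group the tumours were then injected with the control, and in the aPD1 group with an antibody against PD-1, an inhibitory receptor of T cells, at 200 µg per mouse per day. Both groups were harvested on day 10. Each group was 1 library from a number of mice not given in the sources used here. No test across samples, p-value or standard error can therefore be given, and every interval below covers counting error only.

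The proteasome is the large protease of the cytosol and nucleus that destroys proteins tagged with ubiquitin. Its barrel-shaped core is built of rings of alpha subunits (Psma genes), which gate the entrance, and rings of beta subunits (Psmb genes), of which Psmb5, Psmb6 and Psmb7 carry the cutting sites. A cap sits on the core: its base holds the ATPases that unfold substrates (Psmc genes) and the scaffold and ubiquitin receptor subunits Psmd1, Psmd2 and Psmd4, and its lid removes ubiquitin through Psmd14. Psmd5, Psmd9 and Psmd10 are chaperones that help to assemble the base. Other caps open the core without ubiquitin, above all the PA28 ring of Psme1 and Psme2, which interferon gamma induces together with the immunoproteasome catalytic subunits and which is known for its part in making peptides for MHC class I.

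The members fell into 7 core alpha, 7 core beta, 6 base ATPase, 3 other base, 8 lid, 3 chaperone and 4 activator genes, plus the testis form Psma8 and the thymus form Psmb11. Of the 40 genes, 38 had at least 20 UMIs (unique molecular identifiers, each standing for 1 captured transcript) over both libraries. Psma8 had 7 UMIs in the Control library and 6 in aPD1, and Psmb11 had 0 and 1, and both were dropped. All 40 genes were found in the GENCODE M21 annotation of GRCm38, on 16 chromosomes, so they do not form a genomic cluster. In that annotation the exons of 2 members overlap another gene on the same strand and those of 9 overlap one on the opposite strand, among them Psme1 and Emc9. Whether the counting used strand is not stated in the labels. Psme2b, a close copy of Psme2 with 628 Control and 1685 aPD1 UMIs of its own, makes the Psme2 counts uncertain.

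Promoter stretches are shown for 3 members to which the results return: the catalytic gene Psmb5, the ubiquitin receptor gene Psmd4 and the activator gene Psme1. They are RefSeq sequences of build GRCm38.p6, read 5′ to 3′ on the strand of the gene. Those of Psmb5 and Psmd4 are the 250 bases before the annotated start, and that of Psme1 is a 30-base window around a match that begins 9 bases past the start. Psmb5 is at chr14:54617996-54618245 on the minus strand, Psmd4 at chr3:95042615-95042864 on the minus strand and Psme1 at chr14:55578493-55578522 on the plus strand. Capitals mark matches to the motifs searched.
Psmb5: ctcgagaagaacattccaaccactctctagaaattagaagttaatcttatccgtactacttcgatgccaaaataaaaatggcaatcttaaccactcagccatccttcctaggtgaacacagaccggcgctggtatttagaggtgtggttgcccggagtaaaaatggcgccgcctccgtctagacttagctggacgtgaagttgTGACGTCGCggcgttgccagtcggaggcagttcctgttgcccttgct
Psmd4: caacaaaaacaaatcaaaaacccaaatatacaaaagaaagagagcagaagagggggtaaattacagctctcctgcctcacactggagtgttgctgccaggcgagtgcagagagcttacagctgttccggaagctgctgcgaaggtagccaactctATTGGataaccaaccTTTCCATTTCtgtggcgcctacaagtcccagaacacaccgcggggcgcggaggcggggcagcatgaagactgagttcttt
Psme1: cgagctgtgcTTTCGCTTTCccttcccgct

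The motifs were searched on both strands in windows of 300 bases, from 250 before to 50 after each start, and 33 of the 40 members had at least 1 such window, 36 windows in all. The antioxidant response core TGACNNNGC, the kind of site that Nfe2l1 binds when it raises proteasome genes, was in 6 of the 33 genes (16.7% of the members' windows and 12.4% of all 32851 windows). In Psmb5 it is TGACGTCGC, 47 bases before the start. The interferon-stimulated response core GAAANNGAAA was in 4 genes, Psmb3, Psmd4, Psmd9 and Psme1 (11.1% of the members' windows and 3.44% of all). It reads TTTCCATTTC in Psmd4, 80 bases before the start, and TTTCGCTTTC in Psme1. The NF-Y box CCAAT was in 13 genes (36.1% and 37.4%), with 1 match in the Psmd4 stretch above, and 5 of those 13 are core alpha genes. The gamma-activated site core TTCNNNGAA was in Psmd2 alone (2.78% and 8.3%). A match describes these letters and not a bound site.

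Cells were 1174 barcodes in the Control library and 3321 in aPD1, with medians of 3287 and 2763 UMIs. Marker gates placed 1074 and 3095 of them, and a class was compared if each library held 50 or more of its cells. T cells numbered 343 in Control and 1685 in aPD1, and within them CD8 T cells went from 71 to 1076 and regulatory T cells from 80 to 161. NK cells numbered 308 and 537, monocytes and macrophages 339 and 534, and dendritic cells 66 and 134, while the 199 neutrophils of aPD1 had only 8 counterparts in Control. Markers that no gate had used were summed by class in CPM, the UMIs of a gene per 1000000 UMIs of its class. NK cell markers (Prf1, Nkg7, Klrk1, Tyrobp, Gzma) were at 14500 CPM in Control and 19000 CPM in aPD1 in NK cells, against 2920 and 5770 CPM in T cells. Of 5 listed T cell markers 3 were in the gene table, at 1500 and 1660 CPM in T cells and 527 and 516 CPM in NK cells. The macrophage list was at 21700 and 10700 CPM in monocytes and macrophages against 2770 and 2810 CPM in dendritic cells. The dendritic list, which includes MHC class II genes that macrophages share, was at 31200 and 18000 CPM in dendritic cells and 28300 and 8560 CPM in monocytes and macrophages, so in Control it hardly separated them. Genes of the myeloid gate were at 121 CPM in T cells of both libraries against 19700 and 19500 CPM in monocytes and macrophages, and the tumour epithelial list was at or below 44.2 CPM in the classes compared. A total of 4 cell barcodes occurred in both libraries, and no doublet caller was run. Cells with both lymphoid and myeloid markers, 9 in Control and 48 in aPD1, were left ungated.

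The 40 genes together made up 0.649% of all UMIs of the Control cells (30646 UMIs, 95% exact Poisson interval 0.642 to 0.657) and 0.756% of those of the aPD1 cells (91179 UMIs, 0.751 to 0.76). The libraries differ in which cells they hold, so the levels were read within each class. Because a 3′ library counts transcript ends, no correction for gene length was made.

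Within each group the subunits were unequal in level, although they enter the particle in fixed numbers. Over all cells the highest core alpha gene was Psma7 at 457 CPM in Control and 511 CPM in aPD1, and the lowest was Psma6 at 160 and 171 CPM. Among core beta genes Psmb1 was highest at 505 and 615 CPM and Psmb7, the trypsin-like catalytic subunit, lowest at 150 and 171 CPM. The base ATPases were lower as a group: Psmc3 led them at 95.4 and 112 CPM and Psmc1 was at 42.0 and 53.7 CPM. Psmd4 stood out in the base at 145 and 175 CPM, and Psmd8 in the lid at 210 and 232 CPM, against 39.2 and 46.6 CPM for Psmd3. Chaperone transcripts were scarcer, from 19.3 and 18.6 CPM for Psmd5 to 50.6 and 54.3 CPM for Psmd9. The activators spanned the widest range: Psme2 was at 565 and 718 CPM and Psme1 at 491 and 562 CPM, while Psme3, the nuclear PA28 form, was at 32.6 and 37.9 CPM and Psme4, a large single-chain activator, at 18.4 and 18.9 CPM.

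That order was much alike from class to class. Over the 31 core, base and lid genes, Spearman's rho between pairs of 8 class-by-library profiles (T cells, NK cells, monocytes and macrophages, and dendritic cells, each in both libraries) ran from 0.927 to 0.99 with a median of 0.954 over 28 pairs. These are correlations across genes that share a library preparation and a mapping, and are given as a description.

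**Figure D1:**
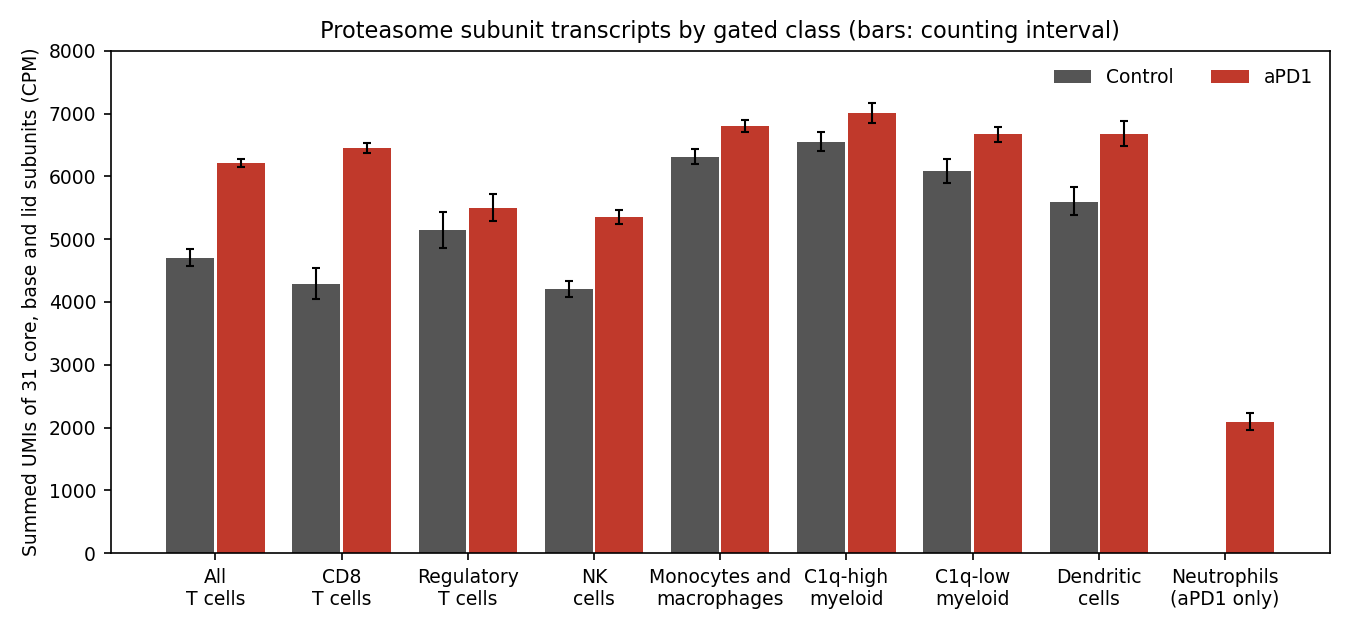
Summed level of the 31 core, base and lid subunits in CPM (y axis, starting at 0) by gated class (x axis) in the Control library (grey) and the aPD1 library (red). Whiskers are 95% Poisson intervals for counting error. The aPD1 bar is the higher in each class with both bars, the regulatory T cell whiskers overlap, and the neutrophil bar of the aPD1 library is the lowest.

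In the Control library the summed core, base and lid level was highest in monocytes and macrophages at 6315 CPM (6197 to 6434), followed by dendritic cells at 5599 CPM (5380 to 5824), T cells at 4705 CPM (4577 to 4836) and NK cells at 4205 CPM (4085 to 4328). The intervals of neighbours in that order do not overlap. In the aPD1 library monocytes and macrophages at 6803 CPM (6711 to 6896) and dendritic cells at 6679 CPM (6480 to 6883) had overlapping intervals, and T cells at 6207 CPM (6141 to 6273) and NK cells at 5350 CPM (5241 to 5461) followed. So the gap between monocytes and macrophages and T cells was 1.34-fold in Control and 1.1-fold in aPD1. In Control 30 of the 31 genes were higher in monocytes and macrophages than in T cells, and in aPD1 23 were. For the core alpha genes alone the log2 gap was 0.55 in Control and 0.32 in aPD1, and for the base it was 0.53 and -0.05. These levels are relative to all UMIs of a class, ribosomal protein genes included. In Control those genes took 19.98% of UMIs in monocytes and macrophages, 24.59% in dendritic cells, 30.63% in T cells and 37.27% in NK cells. In aPD1 they took 21.66%, 18.47%, 28.24% and 32.37%. Their part in the order of the classes was not tested.

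Neutrophils of the aPD1 library were far below the other classes, with 2088 CPM (1958 to 2225) for the 31 genes, 0.307 times the level of monocytes and macrophages, and lower in 31 of 31 genes. Their PA28 pair, Psme1 and Psme2, was at 794 CPM (714 to 880), 0.683 times that of monocytes and macrophages. Psma7 was at 171 CPM in neutrophils and 695 CPM in monocytes and macrophages, Psmb1 at 136 and 505 CPM, and Psmc1 at 15.3 and 64.5 CPM. Neutrophils had a median of 1915 UMIs per cell, and S100a8, S100a9, G0s2, Mmp9 and Cxcl2 together were at 231000 CPM in them. The part of depth and of those abundant genes in the low proteasome level was not tested.

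Between libraries the median member ratios of aPD1 over Control, on the log2 scale, were 0.41 in T cells, 0.61 in CD8 T cells, 0.35 in NK cells, 0.25 in dendritic cells, 0.14 in regulatory T cells and 0.05 in monocytes and macrophages. The order of NK and dendritic cells was not stable: the mean of per-cell CPM gave 0.33 and 0.39, and centring on the median of all genes 0.23 and 0.28. The corresponding medians over all genes with at least 20 UMIs were 0.01, 0.12, 0.09, 0.05, 0.03 and 0.04. A member is counted as higher or lower below where its log2 ratio was past 0.32 or -0.32. The shares of all measured genes given beside such counts include scarce genes and were not matched to the members in UMIs. Over all cells 6 of 38 members were higher and 0 lower, against 20.4% and 20.3% of 10946 measured genes.

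**Figure D2:**
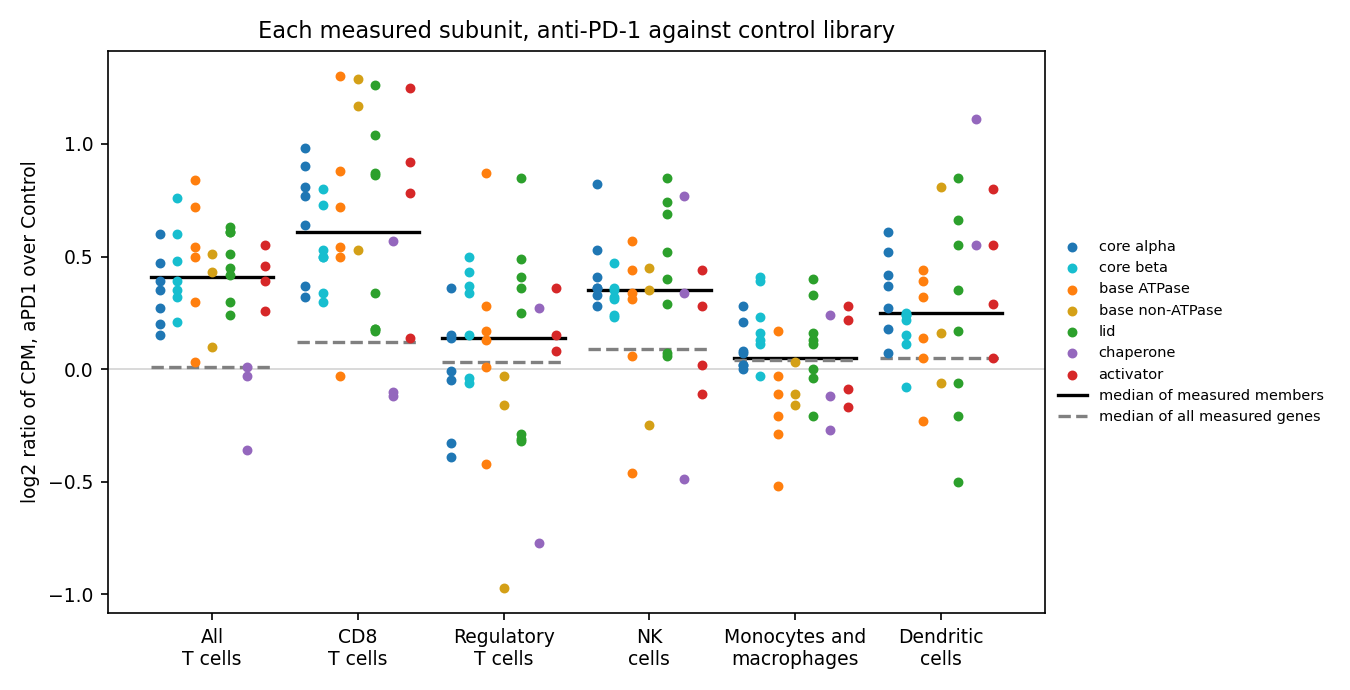
Each dot is 1 subunit gene with at least 20 UMIs in the class, at its log2 ratio of CPM, aPD1 over Control (y axis), coloured by subunit group, for 6 gated classes (x axis). The black line is the median of the measured subunits and the dashed grey line that of all measured genes. The black line lies at 0.41 in T cells and at 0.05 in monocytes and macrophages.

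In T cells the summed core, base and lid subunits went from 4705 CPM in Control to 6207 CPM in aPD1, a log2 ratio of 0.40 (0.36 to 0.44). Of 38 measured members, 24 were higher and 1 was lower, where 26% of all 8947 measured genes were higher and 25.2% lower. The higher level was spread over the particle: 4 of 7 core alpha, 5 of 7 core beta, 4 of 6 base ATPase, 2 of 3 other base and 6 of 8 lid genes were higher, with group sums differing by 0.34 for core alpha (0.27 to 0.42), 0.43 for core beta (0.36 to 0.50), 0.43 for the base (0.32 to 0.55) and 0.44 for the lid (0.32 to 0.56; 0.22 after thinning each cell to 1000 UMIs). The chaperones did not share it: Psmd5, Psmd9 and Psmd10 summed to 147 CPM in Control and 134 CPM in aPD1, a log2 ratio of -0.14 (-0.38 to 0.12), which was 0.08 with each cell thinned to 1000 UMIs.

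Of the catalytic subunits in T cells, Psmb5, the chymotrypsin-like site and main target of proteasome inhibitor drugs, went from 143 to 242 CPM (0.76, interval 0.52 to 1.01). Psmb6, the caspase-like site, went from 176 to 244 CPM (0.48, 0.26 to 0.70), and Psmb7 from 127 to 162 CPM (0.35, 0.09 to 0.62). All 3 intervals lie above 0. Psma7, a core alpha subunit, went from 319 to 441 CPM (0.47, 0.30 to 0.63). Among base ATPases, Psmc1, whose tail helps to open the core gate, went from 30.2 to 54.1 CPM (0.84, 0.32 to 1.41), Psmc3 from 70.4 to 116 CPM (0.72, 0.38 to 1.08) and Psmc4 from 74.1 to 107 CPM (0.54, 0.20 to 0.89). The exception among ATPases was Psmc6, at 96.0 and 97.8 CPM. Psmd4 went from 146 to 197 CPM (0.43, 0.18 to 0.67). In the lid, the deubiquitinase gene Psmd14 went from 64.0 to 97.5 CPM (0.61, 0.24 to 0.99), a ratio that thinning to 1000 UMIs per cell brought to 0.06, and the structural subunit gene Psmd6 from 48.5 to 75.2 CPM (0.63, 0.22 to 1.08). Psmd10, which encodes gankyrin, was the 1 member lower in aPD1, at 59.4 and 46.3 CPM (-0.36, -0.76 to 0.05), an interval that includes 0. Its fellow chaperones Psmd5, at 23.8 and 23.3 CPM, and Psmd9, at 64.0 and 64.5 CPM, had nearly equal levels. Psme1 went from 451 to 591 CPM (0.39, 0.25 to 0.53) and Psme2 from 596 to 716 CPM (0.26, 0.14 to 0.39), so PA28 differed less than Psmb5 did. Psme3, at 29.3 and 43.0 CPM, and Psme4, at 11.9 and 16.4 CPM, were low in both libraries.

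The T cells of the libraries were of different kinds, and CD8 T cells were 71 of 343 in Control and 1076 of 1685 in aPD1. With 4 T-cell gates weighted alike in both libraries, the summed T-cell ratio for the 31 genes was 0.43, a value that rests in part on 71 CD8 and 44 conventional CD4 T cells of Control. The part of the mixture in the difference was not tested. Non-cycling T cells alone, 288 in Control and 1354 in aPD1, gave 4497 and 5941 CPM, a log2 ratio of 0.40 (0.35 to 0.45).

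In CD8 T cells the 31 genes summed to 4286 CPM in Control and 6458 CPM in aPD1 (0.59, 0.51 to 0.68). Of 38 measured members 29 were higher and 0 lower, against 38.2% of 7914 measured genes higher and 25% lower. Psmc3 went from 46.9 to 116 CPM (1.30, 0.52 to 2.23), Psmd4 from 82.9 to 202 CPM (1.29, 0.69 to 1.95) and the lid gene Psmd13 from 54.1 to 130 CPM (1.26, 0.52 to 2.11). These 3 rested on 13, 23 and 15 Control UMIs, which sets their wide intervals. Psmb5 went from 144 to 251 CPM (0.80, 0.35 to 1.30), Psmb6 from 180 to 261 CPM (0.53, 0.12 to 0.97) and Psmb7 from 119 to 169 CPM (0.50, 0.00 to 1.06). Psma7 went from 360 to 467 CPM (0.37, 0.08 to 0.68), and Psmc4 from 79.3 to 112 CPM with an interval that includes 0. At the other end were Psmd10, at 50.5 and 46.5 CPM, Psmd5, at 25.2 and 23.6 CPM, and Psmc5, at 79.3 and 77.9 CPM, and the deubiquitinase gene Psmd14 was close behind at 93.7 and 105 CPM. Of PA28, Psme1 went from 364 to 627 CPM and Psme2 from 368 to 694 CPM, a log2 ratio of 0.85 (0.65 to 1.06) for their sum. The base gave 0.76 (0.51 to 1.01), an overlapping interval, and within it Psmd1, Psmd2 and Psmd4 together gave 1.05 (0.60 to 1.53). Psme3 had 5 Control UMIs and Psme4 had 4, too few to place them.

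CD8 T cells differed between the libraries in other ways too. Ribosomal protein genes took 35.88% of their UMIs in Control and 28.86% in aPD1, and the summed NK cell markers were at 3670 and 6840 CPM. With CPM computed without mitochondrial and ribosomal protein genes, the median member ratio was 0.45 in place of 0.61, and with each cell thinned to 1000 UMIs it was 0.33. The median of all genes with at least 200 UMIs was itself shifted by 0.16 in CD8 T cells and by 0.11 in NK cells, and relative to it the members' medians were 0.44 and 0.23. Among CD8 T cells with a Gzmb or Gzmk UMI, granzymes that mark armed cells, the summed level of the 31 genes was 4436 CPM in 46 Control cells and 6502 CPM in 997 aPD1 cells (0.55, 0.45 to 0.65). Among those with neither it was 3941 CPM in 25 cells and 5780 CPM in 79 cells (0.55, 0.38 to 0.73). The median member ratios were 0.65 and 0.51, and the difference between these subsets was not tested.

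T cells outside the CD8, conventional CD4 and regulatory gates, 148 in Control and 345 in aPD1, went from 4499 to 5560 CPM for the 31 genes (0.31, 0.23 to 0.38), with 22 of 38 members higher and 1 lower (29.5% and 17.8% of 5417 measured genes).

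Regulatory T cells had the smallest difference among the T cells compared. Their 31 genes summed to 5143 CPM in Control and 5498 CPM in aPD1 (0.10, 0.00 to 0.20), with 11 members higher and 6 lower of 36 measured, against 26% and 21% of 3796 measured genes. Psmb5 was at 169 and 239 CPM (0.50, -0.03 to 1.05), Psmd14 at 56.3 and 102 CPM (0.85, -0.04 to 1.83), and Psma6 at 201 and 153 CPM (-0.39, -0.94 to 0.17). Each of these intervals includes 0. Other members lay on both sides of 0: Psmd11 was at 80.4 and 113 CPM (0.49, -0.29 to 1.31) and Psmb4 at 161 and 217 CPM (0.43, with an interval that includes 0), while Psma2 was at 390 and 311 CPM (-0.33, -0.71 to 0.06), Psmd13 at 105 and 83.5 CPM (-0.32, -1.09 to 0.46) and Psmd7 at 92.5 and 74.5 CPM (-0.31, -1.12 to 0.52). Psma7 was at 330 and 318 CPM, Psmb6 at 193 and 187 CPM, Psmb7 at 109 and 138 CPM, Psmc4 at 84.4 and 63.2 CPM and Psmd4 at 181 and 162 CPM. Of the activators, Psme1 was at 462 and 490 CPM and Psme2 at 768 and 851 CPM. In Control, CD8 T cells were 0.833 times the level of regulatory T cells for the 31 genes, and in aPD1 they were 1.17 times that level. On the log2 scale these were -0.26 (-0.38 to -0.15) and 0.23 (0.17 to 0.29). For PA28 the CD8 level was 0.595 times that of regulatory T cells in Control and 0.986 times in aPD1. Ribosomal protein genes took 35.88% of CD8 and 23.75% of regulatory T cell UMIs in Control, and 28.86% and 22.95% in aPD1. Their part in these ratios of classes was not tested. That the library difference is larger in CD8 than in regulatory T cells was not tested across samples, as each library is 1 sample.

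NK cells went from 4205 to 5350 CPM for the 31 genes (0.35, 0.30 to 0.40). Of 38 members 22 were higher and 2 lower, against 27.2% and 15.7% of 7086 measured genes. Whatever the size of the difference, all 7 core alpha genes had a higher CPM in aPD1, as did 59.9% of measured genes, led by Psma4 at 138 and 243 CPM (0.82, 0.55 to 1.10). In the lid, Psmd12 went from 36.3 to 65.4 CPM (0.85, 0.32 to 1.41), Psmd6 from 46.2 to 77.1 CPM (0.74, 0.26 to 1.23) and Psmd14 from 52.6 to 75.3 CPM (0.52, 0.06 to 0.99). Of the catalytic genes, Psmb5 differed at 180 and 228 CPM (0.35, 0.10 to 0.60), while Psmb6, at 210 and 246 CPM, and Psmb7, at 105 and 131 CPM, had intervals that include 0. The lower members were the ATPase gene Psmc5, at 75.3 and 54.9 CPM (-0.46, -0.90 to -0.01), and Psmd5, at 26.3 and 18.7 CPM (-0.49, -1.26 to 0.28). Psmd1 was also lower in level, at 35.4 and 29.8 CPM (-0.25, -0.88 to 0.39), and Psmc4 was near equal at 88.0 and 91.7 CPM. Psma7 was at 357 and 434 CPM (0.28, 0.10 to 0.46) and Psmd4 at 114 and 156 CPM (0.45, 0.14 to 0.77). Psmd10, lower in T cells, was higher in NK cells at 28.1 and 47.9 CPM (0.77, 0.16 to 1.41). Psme1 was at 414 and 504 CPM (0.28, 0.12 to 0.45) and Psme2 at 348 and 472 CPM (0.44, 0.26 to 0.62). The scarcer activator genes did not share this, Psme3 being at 34.5 and 35.0 CPM and Psme4 at 14.5 and 13.4 CPM. Ribosomal protein genes took 37.27% of NK cell UMIs in Control and 32.37% in aPD1, and without these and the mitochondrial genes in the total the members' median was 0.23 in place of 0.35.

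**Figure D3:**
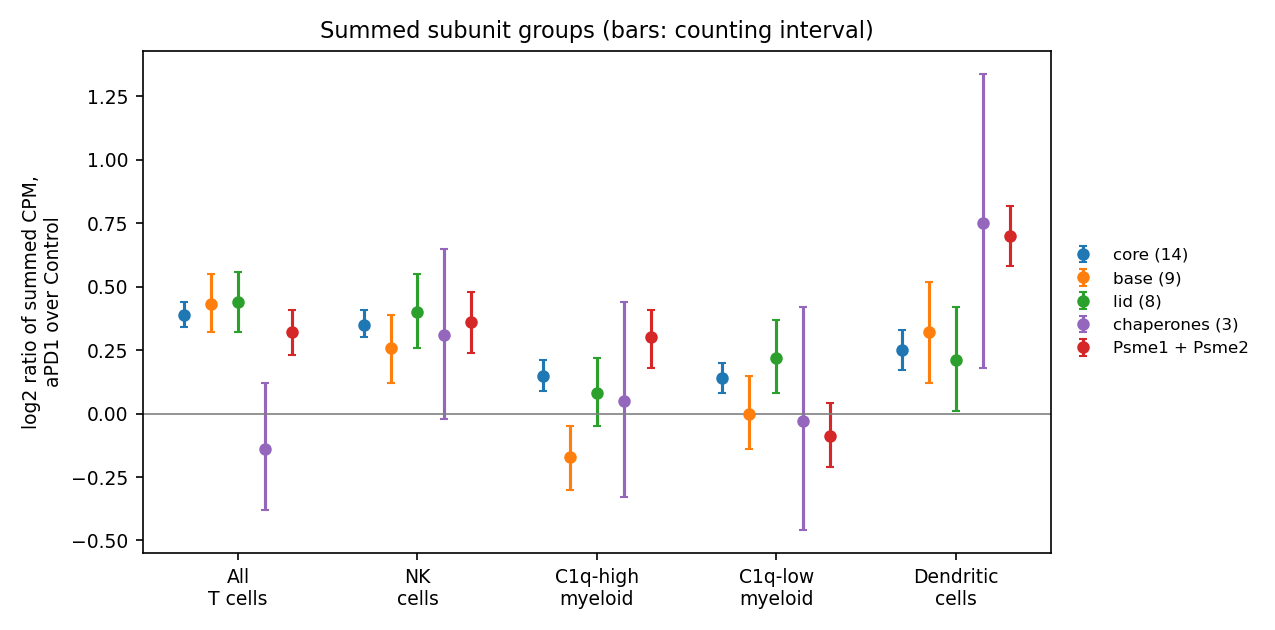
Log2 ratio of summed CPM, aPD1 over Control (y axis), for 5 subunit groups in 5 gated classes (x axis), with whiskers for the 95% counting interval. Numbers in the legend are genes per group. The base lies at 0.43 in T cells and at -0.17 in C1q-high cells, where thinning each cell to 1000 UMIs gave 0.01, and Psme1 with Psme2 at 0.70 in dendritic cells.

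Monocytes and macrophages showed small and uneven differences. Their 31 genes went from 6315 to 6803 CPM (0.11, 0.07 to 0.14), and 4 of 38 members were higher and 1 lower, below the 25.4% and 21.8% of 8512 measured genes. Of those 8512 genes only 2795 had at least 200 UMIs, and the shares were not matched to the members in UMIs. The higher members were Psmb4, at 209 and 277 CPM (0.41, 0.23 to 0.59), Psmb5, at 236 and 308 CPM (0.39, 0.22 to 0.56), Psmd7, the lid partner of the deubiquitinase, at 78.5 and 104 CPM (0.40, 0.11 to 0.70), and Psmd13, at 101 and 128 CPM (0.33, 0.07 to 0.60). The other catalytic genes differed less, Psmb6 being at 324 and 317 CPM and Psmb7 at 190 and 205 CPM. Among core alpha genes Psma7 was at 599 and 695 CPM (0.21, 0.11 to 0.32). Psmd14 was at 97.4 and 107 CPM (0.13, -0.14 to 0.41), and the lowest ratios outside the base were those of the chaperone gene Psmd9, at 48.1 and 39.9 CPM (-0.27, -0.68 to 0.15), and of Psmd11, at 83.1 and 72.0 CPM (-0.21, -0.52 to 0.10). Psme2 was at 587 and 684 CPM (0.22, 0.11 to 0.33) while its ring partner Psme1 was at 509 and 478 CPM (-0.09, -0.21 to 0.03), and Psme3 was at 37.8 and 33.7 CPM and Psme4 at 23.5 and 28.5 CPM.

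The base went the other way in these cells: its 9 genes summed to 901 CPM in Control and 816 CPM in aPD1 (-0.14, -0.23 to -0.05), although the ratio was 0.03 with each cell thinned to 1000 UMIs. Of the 6 ATPases, 5 had a lower CPM in aPD1, where 53.8% of measured genes had a higher one, led by Psmc5 at 105 and 73.6 CPM (-0.52, -0.81 to -0.23) and Psmc4 at 114 and 93.0 CPM (-0.29, -0.56 to -0.03). Psmd4 was at 158 and 146 CPM with an interval that includes 0, and the exception was Psmc1 at 57.3 and 64.5 CPM. Split by C1q, which marks mature macrophages, the base was at 988 and 875 CPM in C1q-high cells (-0.17, -0.30 to -0.05; 0.01 after thinning) and at 779 and 781 CPM in C1q-low cells (0.00, -0.14 to 0.15). In cells with no cycling UMI the ratio for all monocytes and macrophages was -0.10 (-0.21 to 0.01), an interval that includes 0. In this class the macrophage list was at 21700 CPM in Control and 10700 CPM in aPD1 and the neutrophil list at 934 and 3850 CPM, and their part in these values was not tested.

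The activators also separated the C1q subsets. In C1q-high cells Psme1 and Psme2 summed to 1099 CPM in Control and 1349 CPM in aPD1 (0.30, 0.18 to 0.41), and most of this was Psme2, at 582 and 809 CPM (0.47, 0.32 to 0.63), with Psme1 at 517 and 540 CPM. In C1q-low cells the sum was 1115 and 1050 CPM (-0.09, -0.21 to 0.04). Cycling cells were 0.633% of C1q-low cells in Control and 16.7% in aPD1, and in cells with no cycling UMI the sum was 1120 and 1213 CPM in C1q-low cells (0.12, -0.02 to 0.26) and 1083 and 1501 CPM in C1q-high cells (0.47, 0.34 to 0.61). The counts of members were 4 higher and 2 lower in C1q-high cells (24.7% and 22.6% of 6695 genes) and 8 higher and 4 lower in C1q-low cells (29.8% and 22.3% of 6873 genes), each of 38.

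Dendritic cells were set apart by their level of PA28. The library ratio of its sum, 0.70 (0.58 to 0.82), did not set them apart, as CD8 T cells had 0.85 (0.65 to 1.06). Psme2 went from 1020 CPM in Control to 1780 CPM in aPD1 (0.80, 0.64 to 0.96) and Psme1 from 789 to 1160 CPM (0.55, 0.36 to 0.74), so that their sum was 1.65 times that of monocytes and macrophages in Control and 2.53 times in aPD1. Cycling cells were 7.58% of dendritic cells in Control and 0% in aPD1, and 3.54% and 15.9% of monocytes and macrophages. In cells with no cycling UMI the dendritic sum was 2028 and 2880 CPM (0.51, 0.37 to 0.64). The sum in such monocytes and macrophages was 1090 and 1322 CPM. The 31 core, base and lid genes went from 5599 to 6679 CPM (0.25, 0.18 to 0.33), and 15 of 37 measured members were higher and 1 lower, against 32.4% and 25.6% of 4725 measured genes. Higher members included Psmd4, at 132 and 230 CPM (0.81, 0.36 to 1.27), the lid gene Psmd11, at 70.5 and 127 CPM (0.85, with 31 Control UMIs), and the chaperone gene Psmd10, at 34.1 and 73.7 CPM (1.11, 0.25 to 2.06). Psma7 was at 509 and 659 CPM (0.37, 0.13 to 0.61). The catalytic genes did not stand out: Psmb5 was at 214 and 237 CPM, Psmb6 at 257 and 306 CPM and Psmb7 at 196 and 230 CPM, each with an interval that includes 0. The 1 lower member was Psmd6, at 86.4 and 61.1 CPM (-0.50, -1.18 to 0.18). The other low ratios were those of Psmc6, at 95.5 and 81.5 CPM (-0.23, -0.84 to 0.39), and Psmb2, at 305 and 288 CPM (-0.08, -0.41 to 0.25). Psmc4 was at 109 and 136 CPM and Psmd14 at 75 and 110 CPM (0.55, -0.07 to 1.19). Unlike Psme1 and Psme2, the activator genes Psme3, at 31.8 and 32.9 CPM, and Psme4, at 20.5 and 25.1 CPM, were low in both libraries. The dendritic cells themselves differed in makeup, since the markers used for their gate summed to 3210 CPM in Control and 6840 CPM in aPD1 while the list with H2-Ab1, H2-Aa and Cd74 was at 31200 and 18000 CPM. The part of that difference in the PA28 values was not tested.

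The catalytic subunits exist in standard and immunoproteasome forms that compete for the same place in the core: Psmb8 replaces Psmb5, Psmb9 replaces Psmb6 and Psmb10 replaces Psmb7. In each class compared the immunoproteasome forms held most of the summed catalytic UMIs. Their share was 79.5% (77.8 to 81.1) in Control T cells and 78.2% (77.5 to 78.8) in aPD1 T cells, 70.3% (68.2 to 72.4) and 70.4% (68.9 to 71.9) in NK cells, 70.6% (69.2 to 71.9) and 68.7% (67.7 to 69.7) in monocytes and macrophages, and 77.3% (74.9 to 79.5) and 79.3% (77.6 to 80.9) in dendritic cells, with exact binomial intervals. Within each of these classes the intervals of the libraries overlap. Standard and immunoproteasome transcripts were thus higher together in aPD1 T cells, where the standard 3 genes summed to 445 CPM in Control and 649 CPM in aPD1 and the immunoproteasome 3 to 1730 and 2320 CPM.

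**Figure D4:**
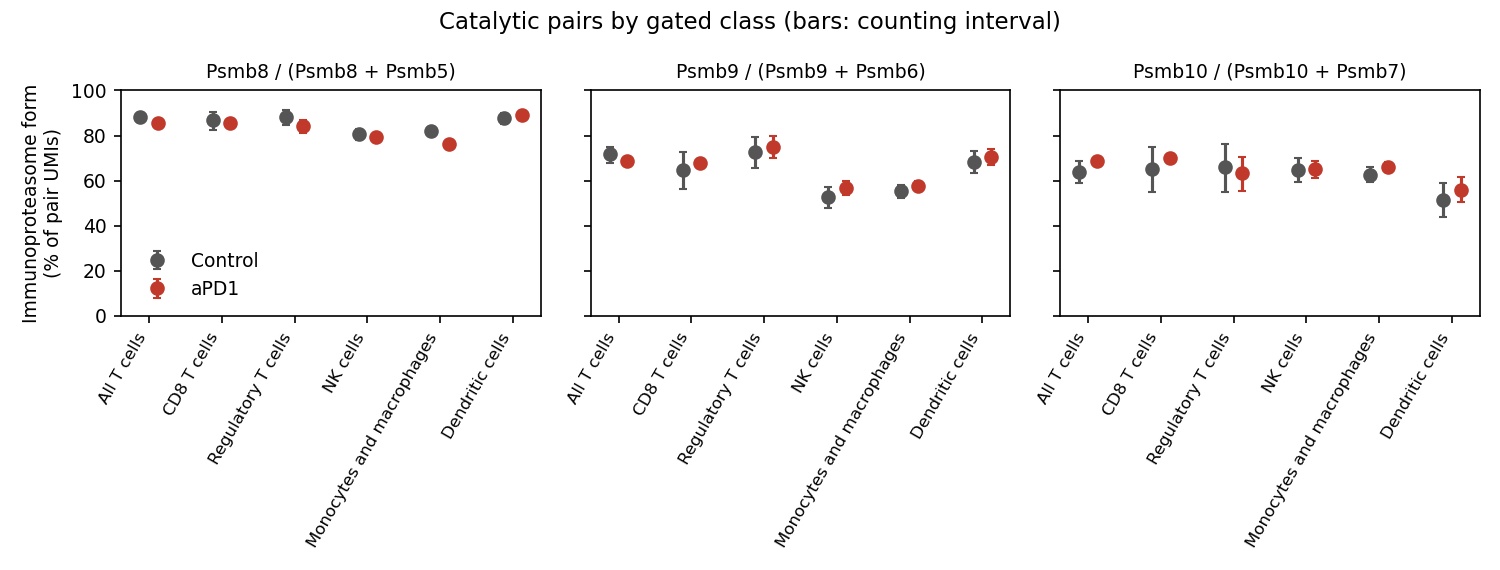
Share of UMIs held by the immunoproteasome form in each catalytic pair (y axis, percent) by gated class (x axis) in the Control (grey) and aPD1 (red) libraries, with exact 95% binomial intervals. The Psmb8 share of monocytes and macrophages is 82.1% in Control and 76.3% in aPD1, and the Psmb9 share of NK cells lies near 50%.

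Single pairs differed more than their sum. In monocytes and macrophages Psmb8 held 82.1% (80.5 to 83.7) of its pair in Control and 76.3% (74.9 to 77.6) in aPD1, as Psmb5 was higher in aPD1 while Psmb8 was at 1080 and 991 CPM. In T cells the same share was 88.1% (86.2 to 89.8) and 85.5% (84.7 to 86.2), with intervals that meet at 86.2%. The Psmb9 share separated the classes: it was 52.6% (48.0 to 57.1) and 56.6% (53.4 to 59.7) in NK cells and 55.2% (52.4 to 58.0) and 57.7% (55.7 to 59.7) in monocytes and macrophages, but 71.6% and 68.8% (67.4 to 70.1) in T cells. Dendritic cells had the lowest Psmb10 share of these classes, 51.4% (43.8 to 59.0) and 56.0% (50.5 to 61.4). Neutrophils of the aPD1 library, low in all standard subunits, had a Psmb9 share of 90.5% (86.5 to 93.7), with Psmb6 at 59.0 CPM and Psmb9 at 564 CPM.

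Cycling could be compared only within the aPD1 library, where T cells, CD8 T cells, monocytes and macrophages and C1q-low cells had at least 30 cells with 3 or more UMIs of 7 cell cycle genes. In T cells the 31 genes were at 5941 CPM in 1354 non-cycling cells and 7157 CPM in 150 cycling cells (0.27, 0.23 to 0.31). Of 38 members 21 were higher in cycling cells and 1 lower, against 32.6% and 32.2% of 8383 measured genes. The cap differed more than the core, with log2 ratios of 0.42 (0.32 to 0.52) for the lid, 0.33 (0.22 to 0.43) for the base and 0.23 (0.18 to 0.27) for the core. In cycling CD8 T cells 21 of 38 members were higher and 2 lower (35.1% and 30.1% of 7452 genes), and in cycling C1q-low cells 8 and 4 of 37 (29.6% and 32.4% of 5637 genes). In T cells Psmd1, a base scaffold subunit, went from 26.1 to 58.0 CPM (1.15, 0.67 to 1.62), Psmb6 from 215 to 348 CPM (0.69, 0.51 to 0.87), and Psmb5 from 232 to 264 CPM (0.19, -0.01 to 0.38). So the gene that led the core in the library comparison, Psmb5, was not among those that led here. The 1 member counted as lower in cycling T cells was Psme1 (-0.51). Psmd4, at 204 and 166 CPM (-0.30, -0.54 to -0.06), and Psmb1, at 749 and 654 CPM (-0.20, -0.32 to -0.08), had intervals below 0 but were not past -0.32.

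**Figure D5:**
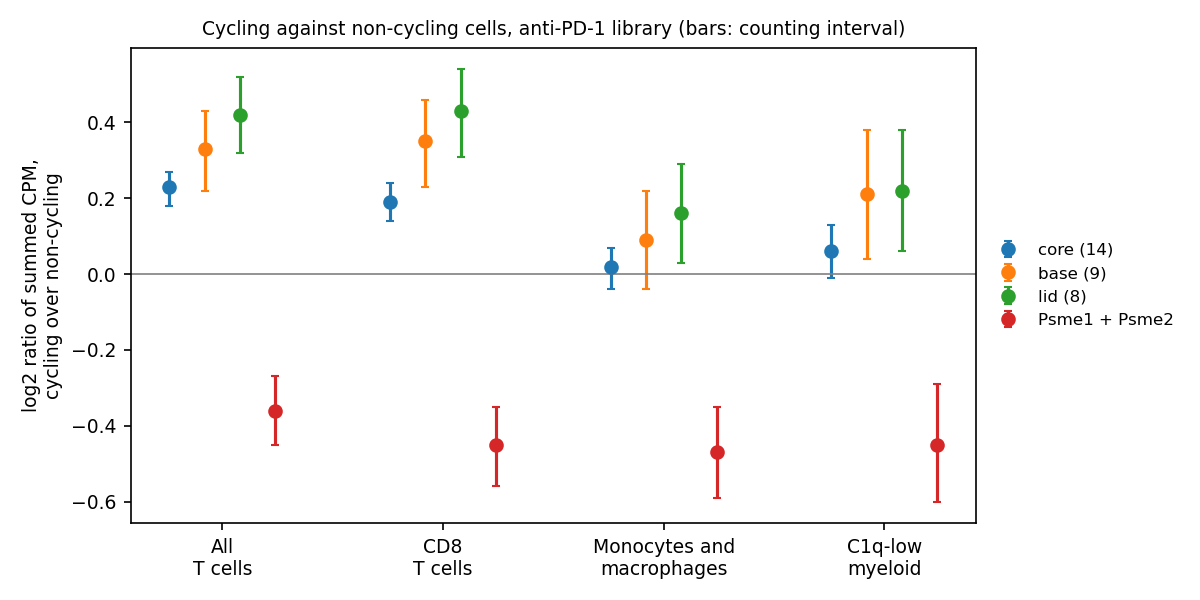
Log2 ratio of summed CPM, cycling over non-cycling cells of the aPD1 library (y axis), for the core, base, lid and PA28 genes in 4 gated classes (x axis), with 95% counting intervals. The PA28 points lie between -0.36 and -0.47, below the other groups in each class, and the T cell value was 0.01 with cells thinned to 1000 UMIs.

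PA28 went against the rest of the particle in this contrast. Psme1 was at 638 CPM in non-cycling and 447 CPM in cycling T cells (-0.51, -0.65 to -0.37) and Psme2 at 740 and 629 CPM (-0.24, -0.36 to -0.11). In monocytes and macrophages Psme2 was at 801 and 540 CPM (-0.57, -0.73 to -0.41) and Psme1 at 521 and 414 CPM (-0.33, -0.52 to -0.15), while the 31 other genes were at 6869 and 7080 CPM (0.04, 0.00 to 0.09). There 6 of 38 members were higher and 3 lower in cycling cells, against 31% and 26.9% of 7040 genes. Cycling cells were much deeper, with medians of 6612 against 2492 UMIs in T cells and 9477 against 4125 in monocytes and macrophages. With each cell thinned to 1000 UMIs and called cycling if at least 1 cell cycle UMI was left, the PA28 ratio was 0.01 (-0.19 to 0.20) in T cells and -0.38 (-0.78 to 0.00) in monocytes and macrophages, and that of the 31 genes in T cells was 0.19 (0.10 to 0.27). The lower PA28 level of cycling T cells was therefore not seen at matched depth and with this looser definition, while the lid was again higher, at 0.36 (0.12 to 0.59).

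The other genes of the pathway were followed through a list of 31, of which 30 were in the gene table: the immunoproteasome subunits, assembly factors, ubiquitin receptors, ubiquitin genes and regulators. In T cells 8 of 30 were higher and 1 lower, close to the background of 26% higher and far from the members' 24 of 38. Those higher included Psmb10, at 226 and 361 CPM (0.68, 0.48 to 0.87), Psmb8, at 1060 and 1430 CPM (0.43, 0.34 to 0.52), and Pomp, the maturation factor of the core, at 351 and 451 CPM (0.36, 0.20 to 0.52). The assembly factor gene Psmg1 was the lower one, at 21.9 and 16.4 CPM, with an interval that includes 0. In CD8 T cells 16 of 30 were higher and 3 lower, where 38.2% and 25% of all measured genes were. The counts were 9 and 1 of 29 in NK cells (27.2% and 15.7% of all genes) and 7 and 3 of 30 in monocytes and macrophages (25.4% and 21.8%), both near those shares for the higher genes. In dendritic cells they were 13 and 4 of 24 (32.4% and 25.6%). In monocytes and macrophages the ubiquitin gene Ubb was lower, at 2180 and 1550 CPM (-0.50, -0.56 to -0.43). Nfe2l1, which encodes the transcription factor that raises proteasome genes when the particle is blocked, was higher in dendritic cells, at 34.1 and 73.7 CPM (1.11, 0.25 to 2.06). Pomp was also higher in NK cells, at 297 and 391 CPM (0.39, 0.20 to 0.59).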

How the data were processed

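The authors deposited raw UMI counts per gene and barcode for each library, over 737280 barcodes. Cell Ranger 2.1 and mouse build mm10 are named in the submitters' processing notes. Cells were barcodes with at least 1000 UMIs and at most 10% mitochondrial UMIs (11 Control and 24 aPD1 barcodes exceeded the latter). Classes were gated on summed UMIs of lineage genes (at least 2 for T and NK cells, 5 for monocytes and macrophages, 3 for dendritic cells, neutrophils and B cells). Cells at exactly the minimum numbered 17 and 32 among T cells, 40 and 73 among NK cells, 8 and 6 among monocytes and macrophages, and 4 and 12 among dendritic cells, in Control and aPD1. C1q-high cells had at least 5 and C1q-low cells at most 1 C1q UMI. Counts were summed within a class of a library and scaled by that class's total UMIs. Ratios have 95% conditional binomial intervals, levels exact Poisson intervals and shares exact Clopper-Pearson intervals. A gene was measured from 20 UMIs over both libraries in a class.

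Genes named with values in a class were the 4 highest and 4 lowest log2 ratios among members with at least 50 UMIs, the genes Psmb5, Psmb6, Psmb7, Psma7, Psmc4, Psmd4, Psmd14 and Psme1 to Psme4, and pathway genes past a log2 ratio of 0.32 in size with at least 50 UMIs, with fewer of them given for other T cells, the C1q subsets and the pathway. Members and lists were chosen with earlier results of these data known. Alternatives were other cell minimums, scalings, gates, thinning, a free-RNA correction and cell weights. Scripts were tested on simulated counts. Python 3.11.15 was used with numpy 2.4.6, scipy 1.17.1, pandas 2.3.3 and matplotlib 3.10.9.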

Additional observations from a re-analysis of the deposited data

Results flagged for a closer look

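The summed base subunits, the ATPases with Psmd1, Psmd2 and Psmd4, had counting intervals on opposite sides of 0 in different lineages. Their log2 ratio of aPD1 over Control was 0.43 in T cells, 0.26 in NK cells and 0.32 in dendritic cells, and -0.14 in monocytes and macrophages. The difference between these classes was not tested, since each library is 1 sample. Over the alternatives the base ratio ran from 0.31 to 0.55 in T cells, from 0.02 to 0.37 in NK cells, from 0.20 to 0.53 in dendritic cells and from -0.21 to 0.03 in monocytes and macrophages, where thinning gave the positive value.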

How the results depend on the processing

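No paired analysis was possible because each group is 1 library and the labels give no replicate numbers; for the same reason no library could be left out. The summed core, base and lid ratio stayed above 0 in each class under the alternatives run, from 0.35 to 0.43 in T cells, 0.43 to 0.65 in CD8 T cells, 0.04 to 0.13 in regulatory T cells, 0.23 to 0.31 in other T cells, 0.23 to 0.37 in NK cells, 0.04 to 0.21 in monocytes and macrophages and 0.14 to 0.30 in dendritic cells. Of 182 recomputed values, 137 moved by less than a counting interval and 45 by more. These were member medians, between libraries or between cycling and non-cycling cells, and immunoproteasome shares. For a median this was the interval of the members' summed UMIs. Of 2975 other values, which were group sums and single-gene ratios, 110 moved by more. A further 7 of them, past 0.32 in size as reported, took the other sign. Of 84 single-gene ratios past 0.32 in size, 43 came under that size in at least 1 alternative (25 with thinning) and 7 took the other sign. Of 69 smaller ones 45 lay on the other side of 0 in at least 1 alternative. The cause was not tested.

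Median log2 ratios of the members moved as follows. CPM without mitochondrial and ribosomal protein genes gave 0.36 in T cells (0.41 as reported), 0.45 in CD8 T cells (0.61), 0.31 in other T cells (0.38), 0.23 in NK cells (0.35), 0.10 in monocytes and macrophages (0.05), 0.12 in C1q-high cells (0.07) and 0.13 in dendritic cells (0.25). Centring on the median of all genes with at least 200 UMIs gave 0.36 in T cells, 0.44 in CD8 T cells, 0.23 in NK cells, -0.01 in monocytes and macrophages, 0.02 in C1q-high cells and 0.04 in C1q-low cells (0.12 as reported). Thinning each cell to 1000 UMIs gave 0.31 in T cells, -0.02 in regulatory T cells (0.14), 0.33 in CD8 T cells, 0.30 in other T cells, 0.18 in monocytes and macrophages and 0.16 in C1q-high cells. The mean of per-cell CPM gave 0.29 in other T cells, 0.08 in monocytes and macrophages, 0.15 in C1q-high cells and 0.39 in dendritic cells. Stricter gates gave 0.33 in T cells and 0.07 in C1q-low cells, a UMI minimum of 2000 gave 0.69 in CD8 T cells, a mitochondrial limit of 5% gave 0.12 in C1q-high cells, and subtracting a free-RNA profile gave 0.06 in C1q-low cells. Weighting C1q-high and C1q-low cells alike gave 0.09 in monocytes and macrophages, and weighting cycling and non-cycling cells alike gave 0.30 in other T cells. Settings added after seeing the data were cells with no cycling UMI, which gave 0.71 in CD8 T cells, 0.24 in other T cells, 0.09 in monocytes and macrophages, 0.12 in C1q-high cells and 0.36 in dendritic cells, cells without the shared barcodes, which moved none of these medians, and CD8 T cells by granzyme UMIs, where those without gave 0.51.

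The immunoproteasome share of T cells in aPD1 was 80.5% thinned and 78.9% with stricter gates, that of CD8 T cells 80.7% and 78.9%, and that of Control monocytes and macrophages 68.0% thinned. The cycling medians with gate and levels thinned were 0.17 in T cells (0.36 as reported), 0.24 in CD8 T cells (0.33), -0.05 in monocytes and macrophages (0.07) and 0.01 in C1q-low cells (0.07). The 7 ratios past 0.32 in size that took the other sign did so with thinning in regulatory T cells (Psmb4 -0.42, Psmd11 -0.27, Psme3 -0.69), CD8 T cells (Psme3 -0.30), other T cells (Psmd10 0.36) and dendritic cells (Psma7 -0.06), and, for Psmc4 (-0.32), in CD8 T cells without granzyme UMIs. With 71 CD8 T cells in Control, subunits there rest on few UMIs, and 1 library per group leaves treatment, mouse and library preparation impossible to tell apart.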
